A study of Mus musculus with 4 samples.

Results

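The genes that write, erase and read cytosine methylation were followed in mouse dendritic cells given SAHA. They were 9 genes fixed by name, of the 18194 genes that the arrays reported with a single gene symbol: the methyltransferases Dnmt1, Dnmt3a and Dnmt3b, the dioxygenases Tet1, Tet2 and Tet3, the maintenance factor Uhrf1, and the methyl-CpG readers Mbd1 and Mbd4. All 9 were measured, by 27 probe sets in all. A gene is represented by whichever of its probe sets had the highest mean. The others are given beside it for the 9 genes, and only in part for genes outside the 9.

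Expression was measured on 4 Affymetrix arrays, 2 of cells given diluent (control) and 2 of cells given SAHA. SAHA (vorinostat) inhibits histone deacetylases, which take acetyl groups off histones and other proteins. The mice were of strain C57BL/6, and the labels name no genetic change, age or sex. Marrow from 3 or more mice per experiment was grown for 7 days in GM-CSF and IL-4 (each 10 ng/ml), and CD11c-positive cells were taken out with magnetic beads (stated purity 95%). Both groups were then treated for 12 hours, with a SAHA dose that the labels write as 500 nm. The question was how the inhibitor changes gene expression in dendritic cells. The titles number the arrays as biological replicates and do not tie them to separate marrow pools, so each p-value reflects only the spread between these arrays, which may be technical.

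Cytosine methylation at CpG sites is laid down by DNMT3A and DNMT3B and copied to the new strand after replication by DNMT1, which UHRF1 guides to half-methylated CpG sites. TET enzymes oxidise methylcytosine, after which it is lost by dilution or by base excision repair. Proteins with a methyl-CpG-binding domain read the mark: MBD1 is a transcriptional repressor, and MBD4 is a glycosylase that removes thymine from T:G mismatches left by deamination. In blood cells DNMT3A and TET2 are known as regulators of stem cell and myeloid differentiation, and DNMT1 and UHRF1 are known for high expression in dividing cells.

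The dendritic cell list had 15 measured genes, of which none lay in the lowest quartile on all 4 arrays. An unadjusted p under 0.05 was found for 4 of them, beside 18.1% of all genes. Their log2 changes ran from -0.49 to 1.09 (median -0.03), and the 1 called, Irf4, a transcription factor of dendritic cells, was higher with SAHA (0.81, adjusted p = 0.0431). Of all genes 1.52% were called higher. Itgax, which encodes CD11c, had a change of -0.12 (adjusted p = 0.886), and the class II invariant chain Cd74 one of -0.03 (0.887). These 2 were chosen outside the rule used for the other lists and do not stand for the 15. In 7 of the 15 the groups did not overlap, 4 with SAHA lower and 3 with SAHA higher, beside 50.7% of all genes. The largest change, 1.09, was in a gene that was not called. Neutrophil markers moved with treatment, in both directions: of 11 measured, 5 were called lower and 1 higher, beside 0.709% and 1.52% of all genes. Their changes ran from -1.88 to 3.65, with a median of -0.50. Their summed level, as log2 of the sum of linear values, was 12.6 to 13.1 in control and 13.1 to 13.4 in SAHA-treated cells. Of 7 B cell markers 1 was called lower (median -0.22, summed level 9.88 to 10.4 in control and 8.85 to 8.88 with SAHA). None of the macrophage (11), mast cell and basophil (8), T and NK cell (8), erythroid (6) or stromal and endothelial (8) markers was called. In those 5 lists 1, 0, 0, 0 and 0 genes had an unadjusted p under 0.05, beside 18.1% of all genes. The part of neutrophil or B cell RNA in the members' values was not tested. In these bulk samples a change in the number of cells of a type and a change in RNA per cell cannot be told apart.

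The 9 genes gave a mixed picture. By these leading probe sets none of them passed the threshold (limma, Benjamini-Hochberg adjusted p under 0.05 over all 18194 genes), where 405 genes, or 2.23%, did so (1.52% higher and 0.709% lower). At an unadjusted p under 0.05 there were 3 members, namely Dnmt1, Uhrf1 and Mbd4, against 18.1% of all genes, and an ordinary linear model called none. The log2 change, SAHA minus control, lay between -1.49 for Uhrf1 and 0.50 for Mbd4, with 5 genes below 0 and 4 above it. The median was -0.14, against -0.05 over all genes. In 4 genes (Dnmt1, Tet1, Tet3 and Uhrf1) both SAHA arrays lay below both control arrays, and in 3 (Tet2, Mbd1 and Mbd4) above them. Together that is 7 of 9 genes without overlap, beside 50.7% of all genes (29.6% with SAHA lower and 21.1% with SAHA higher). The smallest p that an exact permutation test (two-sided) can give for a single gene with n = 2 per group is 0.333.

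**Figure D1:**
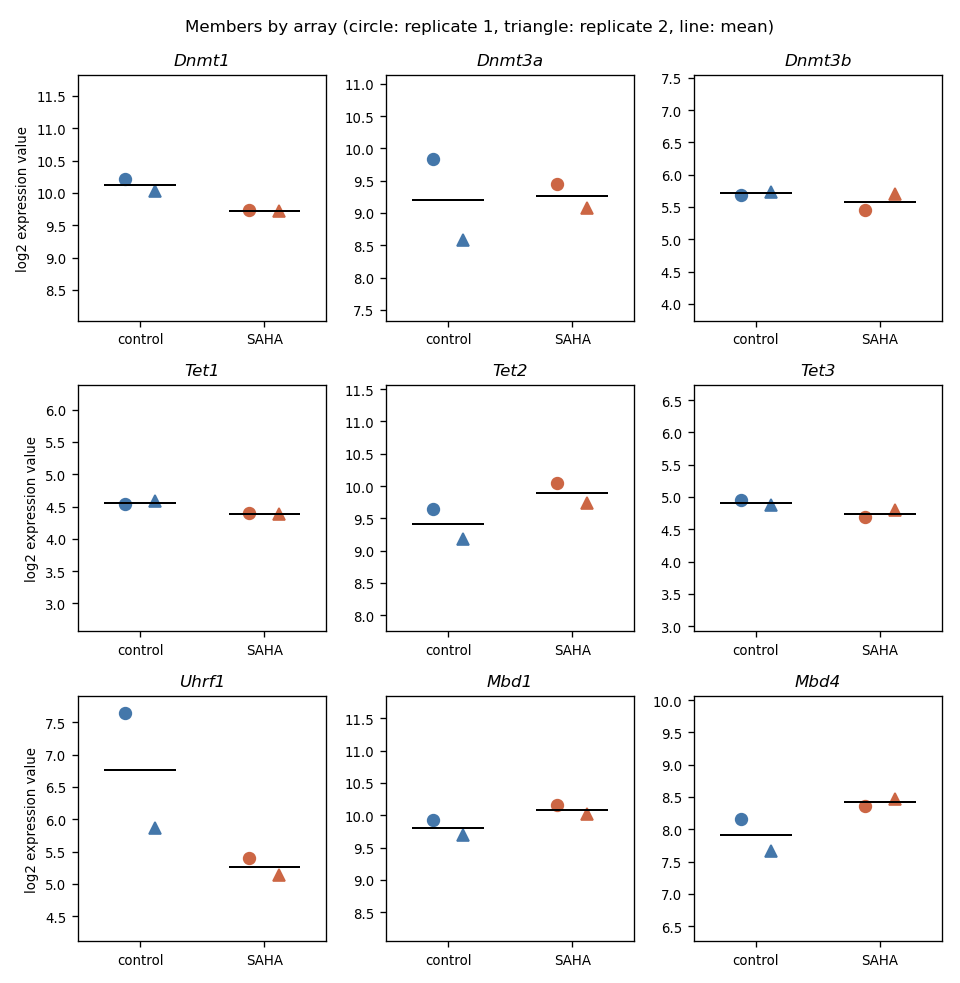
Deposited log2 expression value (vertical axis) of each of the 9 genes on each array, by group, with a vertical span of equal height in every panel. Circles are replicate 1, triangles replicate 2 and lines the mean of the 2 arrays. Uhrf1 shows the widest gap between the control arrays, from 5.87 to 7.64, and its SAHA arrays lie below both.

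At the level of single probe sets 2 of the 27 passed, both of Dnmt3a and both lower with SAHA, where 389 of 34958 probe sets (1.11%) passed in all. The groups did not overlap in 16 probe sets, 11 with SAHA lower and 5 with SAHA higher, where 48.8% of all probe sets did not overlap (27.6% lower and 21.2% higher). No probe set that carries several gene symbols names a member.

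**Figure D2:**
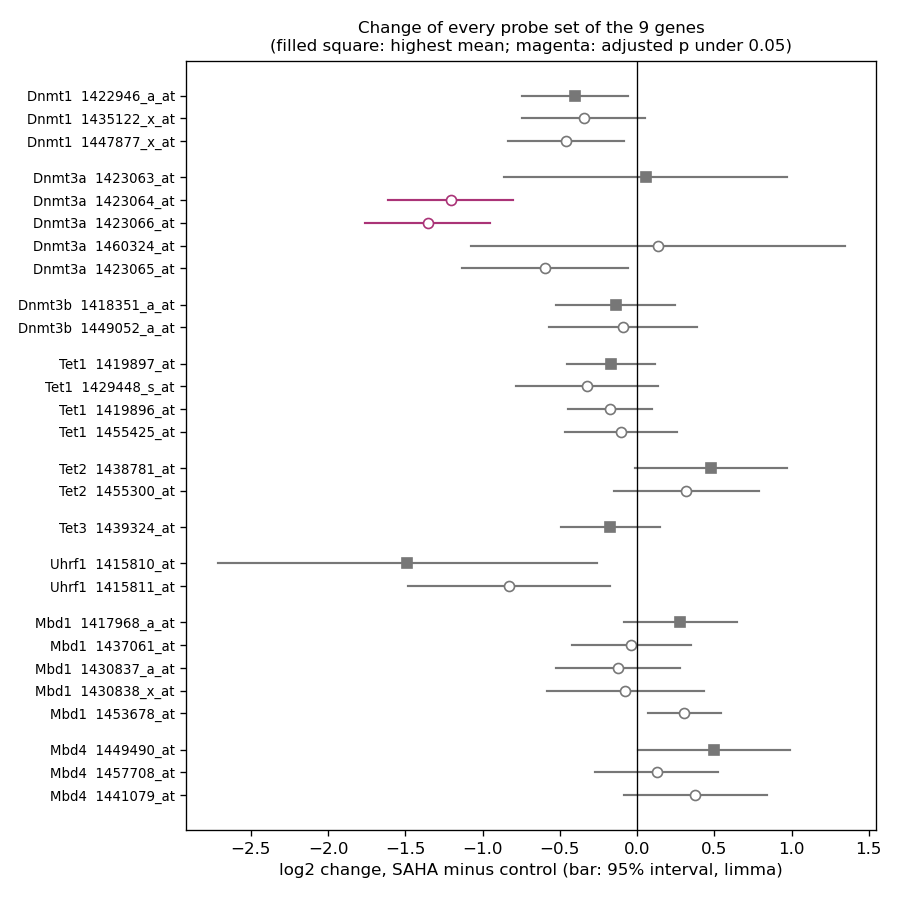
Log2 change, SAHA minus control (horizontal axis), of all 27 probe sets of the 9 genes, with the 95% interval of limma's moderated fit as bars. Filled squares are the probe sets of highest mean and magenta marks an adjusted p under 0.05, reached by 1423064_at at -1.21 and 1423066_at at -1.35, both of Dnmt3a.

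Among the writers, Dnmt3a, which encodes the main de novo methyltransferase of blood cells, gave unlike answers from its 5 probe sets. Probe set 1423063_at has the highest mean, 9.2349, and so stands for the gene under the rule, with 1423064_at next to it at 9.2293. By 1423063_at the log2 values were 9.83 and 8.58 in control and 9.45 and 9.08 in SAHA-treated cells. The control arrays thus lay on either side of both SAHA arrays, and the change was 0.06 ± 0.39 (SE, adjusted p = 0.954 in limma's fit over genes).

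By 1423064_at the values were 9.998 and 9.67 in control and 8.66 and 8.60 with SAHA. Here both SAHA arrays lay more than 1 log2 unit below either control array. The level fell 2.31-fold, a log2 change of -1.21 ± 0.17 (SE, 95% interval -1.61 to -0.80, adjusted p = 0.0354 over the 34958 probe sets).

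By 1423066_at the values were 9.45 and 9.21 in control and 8.07 and 7.88 with SAHA. This level fell 2.56-fold, by a log2 change of -1.35 ± 0.17 (SE, 95% interval -1.76 to -0.95, adjusted p = 0.0263 over probe sets). The remaining pair also parted ways. By 1423065_at the values were 8.07 and 7.49 in control and 7.23 and 7.14 with SAHA, without overlap, and the change was -0.60 ± 0.22 (adjusted p = 0.260). By 1460324_at they were 8.90 and 7.23 in control and 8.48 and 7.91 with SAHA, and the change was 0.13 ± 0.51 (adjusted p = 0.920).

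Of the 5 probe sets, 3 therefore had both SAHA arrays below both control arrays and 2 had overlapping groups. In all 5 the array of replicate 1 was the higher one in each group. The annotation gives the same accession for all 5, and the part of the transcript that each one reads was not analysed here. Averaged over the 5, Dnmt3a had a change of -0.59 (adjusted p = 0.333).

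Neither called probe set of Dnmt3a kept its call when any 1 of the 4 arrays was left out. Without control replicate 1 the adjusted p was 0.117 for 1423064_at and 0.101 for 1423066_at, without control replicate 2 it was 0.106 for both, without SAHA replicate 1 it was 0.0981 and 0.0636, and without SAHA replicate 2 it was 0.0781 and 0.0607. The changes themselves stayed between -1.04 and -1.47 in those fits.

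**Figure D3:**
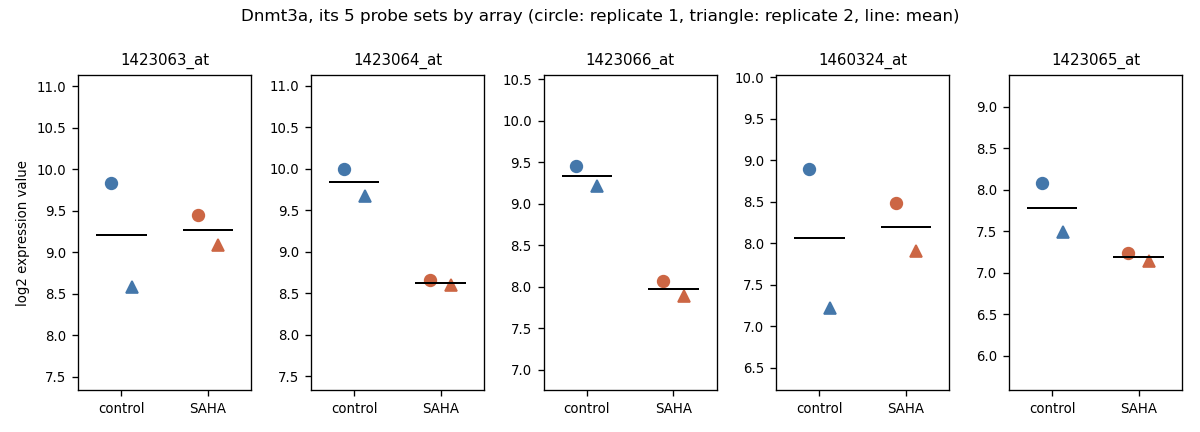
Deposited log2 expression value (vertical axis) of the 5 probe sets of Dnmt3a on each array, ordered by mean, with circles for replicate 1, triangles for replicate 2 and lines for the mean of the 2 arrays. In 1423064_at, 1423066_at and 1423065_at both SAHA arrays lie below both control arrays, while in 1423063_at and 1460324_at the control arrays enclose the SAHA arrays.

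Dnmt1, the maintenance methyltransferase, was lower with SAHA on both arrays in each of its 3 probe sets, without passing the threshold. The values by 1422946_a_at were 10.2 and 10.03 in control and 9.73 and 9.72 with SAHA. The SAHA arrays were nearly equal and lay below both control arrays. The change was -0.40 ± 0.14 (SE, 95% interval -0.73 to -0.07, adjusted p = 0.206). The other probe sets gave -0.35 and -0.46, at an adjusted p of 0.362 and 0.227 over probe sets, and both are of the x type, which can share sequence with other transcripts.

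Dnmt3b, the other de novo methyltransferase, showed overlapping groups in both probe sets. By 1418351_a_at its values were 5.69 and 5.74 in control and 5.45 and 5.69 with SAHA. The change was -0.14 ± 0.15 (95% interval -0.51 to 0.23, adjusted p = 0.673), and by 1449052_a_at it was -0.09.

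Uhrf1, which brings DNMT1 to newly copied DNA, had the largest change of the 9 genes and the widest spread between control arrays. Its values by 1415810_at were 7.64 and 5.87 in control and 5.40 and 5.14 with SAHA. Both SAHA arrays lay below both control arrays, yet the control arrays differed from each other by 1.78 log2 units. The change was -1.49 ± 0.52 (SE, 95% interval -2.74 to -0.24, adjusted p = 0.211). By 1415811_at the values were 5.92 and 5.09 in control and 4.81 and 4.55 with SAHA, with a change of -0.83 ± 0.27 (adjusted p = 0.211 over probe sets) and the same order of arrays.

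The size of the Uhrf1 change rested on the control arrays. Without control replicate 1 it was -0.60, and without control replicate 2 it was -2.38. Without SAHA replicate 1 it was -1.62 and without SAHA replicate 2 -1.36. Each of these fits leaves 1 array in a group, so only the size of the change is given.

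Replication and proliferation genes, a list of 23 measured genes that shares no gene with the 9, had the same order of control arrays as Uhrf1. In control replicate 1 the level was above that of control replicate 2 for 22 of the 23, by a median of 0.50, whereas over all genes 8314 of 18194 were higher there, with a median of -0.03. This order was not particular to the list. It held for 7 of the 9 members, 10 of 11 subunits of the NuRD corepressor (median 0.20) and 11 of 14 methyl donor and cofactor genes (median 0.43). Among germ cell genes it held for 5 of 16 (median -0.16). With SAHA 20 of the 23 had a change below 0, beside 10692 of all 18194 genes. Their median was -0.51, against -0.05 over all genes. Of the 23, 1 was called lower and none higher, beside 0.709% and 1.52% of all genes. An unadjusted p under 0.05 in either direction was found for 12, beside 18.1% of all genes. Without control replicate 1 the median of the list was -0.24, and without control replicate 2 it was -0.74. The called gene was Mcm5, a subunit of the replicative helicase, at 9.64 and 8.78 in control and 7.46 and 6.83 with SAHA (change -2.06 ± 0.33, adjusted p = 0.0400). It lost its call without SAHA replicate 1 (adjusted p = 0.0877) and without SAHA replicate 2 (0.108). The part of cell division in the values of Uhrf1 and Dnmt1 was not tested.

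The start regions of Uhrf1 and Dnmt1 are shown because both genes were lower on both SAHA arrays in every probe set and both hold a match to a motif of E2F, the factor family of the G1 to S transition. RefSeq start windows (GRCm38.p6) were found for 8 of the 9 genes, not Mbd1, as 13 windows of 250 bases before an annotated start. The motif was searched on both strands in its 4 forms TTTCCCGC, TTTCGCGC, TTTGCCGC and TTTGGCGC, which overlap only where a site is read on both strands. It was present in 2 of the 13 windows and in 1.86% of 32851 windows of all genes. Each form contains a CpG, and the windows were not matched for CpG content. The 2 shares are therefore not like for like. The stretches below hold the match in capitals with 20 bases on either side, 5′ to 3′ on the strand of the gene, the first at chr9:20952815-20952862 (minus strand) and the second at chr17:56304108-56304155 (plus strand).
Dnmt1, start 3: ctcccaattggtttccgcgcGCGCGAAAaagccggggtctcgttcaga
Uhrf1, start 2: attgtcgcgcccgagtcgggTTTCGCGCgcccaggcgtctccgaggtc
Both match the form TTTCGCGC, on the minus strand relative to the gene in Dnmt1 and on the plus strand in Uhrf1. The match begins 219 bases before start 3 of Dnmt1 and 185 bases before start 2 of Uhrf1, where a gene's annotated starts are numbered from its 5′ end. The other windows of these genes, and those of Dnmt3a, Dnmt3b, Tet1, Tet2, Tet3 and Mbd4, held none of the 4 forms. A match in letters is a description and not a measured binding site.

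CpG sites, the substrate of these enzymes, ranged from 2 in the first window of Dnmt1 to 51 in the window of Tet2, where the median over all windows was 6. The Dnmt1 window with the E2F match held 26 CpG sites and the Uhrf1 one 30, more than 90.4% and 94.1% of windows. The 3 windows of Dnmt3a held 38, 40 and 15. Methylation itself was not measured in these samples.

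Among the erasers, Tet2 was higher with SAHA and Tet1 and Tet3 were slightly lower, and none passed. Tet2, a dioxygenase active in myeloid cells, had values by 1438781_at of 9.65 and 9.19 in control and 10.05 and 9.74 with SAHA. Both SAHA arrays lay above both control arrays, though SAHA replicate 2 exceeded control replicate 1 by less than the control arrays differed. The change was 0.48 ± 0.20 (SE, 95% interval -0.01 to 0.97, adjusted p = 0.283). By 1455300_at the values were 8.50 and 8.13 in control and 8.77 and 8.49 with SAHA, which overlap, and the change was 0.32 ± 0.20 (0.470 over probe sets). The change was 0.71 without control replicate 1 and 0.25 without control replicate 2, at an adjusted p of 0.122 and 0.695.

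Tet1 had low signal, below the median of every array. Its values by 1419897_at were 4.54 and 4.58 in control and 4.40 and 4.38 with SAHA, a change of -0.17 ± 0.11 (95% interval -0.44 to 0.11, adjusted p = 0.486). All 4 of its probe sets had a change below 0, from -0.32 to -0.11, and 1455425_at lay under the 25th percentile on all 4 arrays. Tet3, with 1 probe set, was likewise below the median of every array. It had values of 4.95 and 4.87 in control and 4.69 and 4.79 with SAHA, without overlap, and a change of -0.17 ± 0.13 (95% interval -0.48 to 0.13, adjusted p = 0.516).

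The readers had changes above 0 by their leading probe sets. Mbd4 had values by 1449490_at of 8.17 and 7.67 in control and 8.35 and 8.48 with SAHA. The SAHA arrays lay above both control arrays, and the change was 0.50 ± 0.20 (SE, 95% interval 0.01 to 0.98, adjusted p = 0.267). Its other probe sets gave 0.13 and 0.38, both also above 0. The change was 0.75 without control replicate 1 (adjusted p = 0.0977) and 0.25 without control replicate 2 (0.676).

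Mbd1 had values by 1417968_a_at of 9.93 and 9.69 in control and 10.2 and 10.02 with SAHA. The groups did not overlap, and the change was 0.28 ± 0.15 (95% interval -0.08 to 0.64, adjusted p = 0.383), or 0.16 without control replicate 2. The 5 probe sets of Mbd1 did not share a sign. Besides the leading one, 1453678_at gave 0.30 but lay under the 25th percentile on 3 of the 4 arrays, and 1437061_at, 1430837_a_at and 1430838_x_at gave -0.038, -0.12 and -0.076 with overlapping groups.

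Genes with the array pattern most like a member were sought for Mbd4 and Tet2, the members with the largest changes among those with a mean above the median of genes. Likeness was the Euclidean distance between the 4 log2 values after each gene's mean was taken off, over 9096 genes. Nearest to Tet2 were St13, an HSP70-interacting co-chaperone, Lbr, the lamin B receptor, and Atxn2, an RNA-binding protein, each at a distance of 0.04. Their changes were 0.51 for all 3, at an adjusted p of 0.237, 0.268 and 0.248. Nearest to Mbd4 were the large scaffold protein Ahnak (distance 0.07, change 0.48), the guanine nucleotide exchange factor Fgd6 (0.08, 0.49) and the membrane protein Nipal3 (0.10, 0.43), none of which passed.

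The other genes of the pathway were read from lists. Of 24 further genes of DNA methylation and its readers none passed in either direction, with a median of -0.03. At an unadjusted p under 0.05 there were 2, beside 18.1% of all genes. Mbd3, the NuRD subunit that has lost methyl-CpG binding in mammals, had values of 8.06 and 7.49 in control and 7.21 and 7.26 with SAHA (change -0.54 ± 0.21, adjusted p = 0.262). Its relative Mbd2, which does bind methylated DNA, showed overlapping groups (-0.03, 0.933). Uhrf2, the paralogue of Uhrf1, had a change of -0.07 (0.860) with overlapping groups, and the remodeler Hells, which helps methylation spread through heterochromatin, one of -0.35 (0.469). Cdca7l, a relative of the Hells activator CDCA7, was at 0.44 (0.282). Tdg was not analysed here.

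NuRD subunits, which join MBD2 or MBD3 to histone deacetylases, had a median of 0.26, with 9 of 11 above 0, beside 7502 of all 18194 genes. None passed, and 1 had an unadjusted p under 0.05, beside 18.1% of all genes. That gene was Chd4, the remodeling ATPase, at 0.55 (adjusted p = 0.174), and Mta1 was at 0.37 (0.312). The other probe sets of Chd4 gave 0.68 and 0.26. That of Mta1 gave -0.20, with both SAHA arrays below both control arrays. Of 12 base excision and deamination genes none passed, 1 had an unadjusted p under 0.05 (beside 18.1% of all genes), and the median was -0.18. The DNA ligase Lig3 was at -0.38 (0.243) and the cytidine deaminase Apobec3 at -0.34 (0.378). The other probe sets of Lig3 gave changes from -0.17 to -0.02.

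Methyl donor and cofactor genes held the other calls. Of 14 measured 2 were called lower and none higher, where 0.709% of all genes were called lower, and the list median was -0.16. An unadjusted p under 0.05 in either direction was found for 4, beside 18.1% of all genes. Mtr, methionine synthase, which regenerates methionine for S-adenosylmethionine, had values of 6.42 and 6.39 in control and 5.52 and 5.61 with SAHA. It fell 1.78-fold (change -0.83 ± 0.14, adjusted p = 0.0452), and its second probe set gave -0.47. Idh1, the cytosolic isocitrate dehydrogenase that makes 2-oxoglutarate, the cosubstrate of TET enzymes, had values of 12.3 and 12.2 in control and 11.3 and 11.6 with SAHA. It fell 1.76-fold (change -0.82 ± 0.13, adjusted p = 0.0407), and its second probe set gave -0.98, both of the s type that can share sequence. In limma's fit over probe sets none of these 4 passed. The adjusted p there was 0.0631 and 0.215 for Mtr and 0.0530 and 0.0545 for Idh1. Idh2, of the same list, went the other way (named after its values were seen). Its values were 8.88 and 8.45 in control and 9.64 and 9.11 with SAHA (change 0.71 ± 0.24, adjusted p = 0.194 in limma's fit over genes). Idh3a had overlapping groups (-0.11, 0.838). Mtr and Idh1 each lost the call when any 1 of the 4 arrays was left out, at an adjusted p of 0.0649 to 0.327 and of 0.0679 to 0.247.

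**Figure D4:**
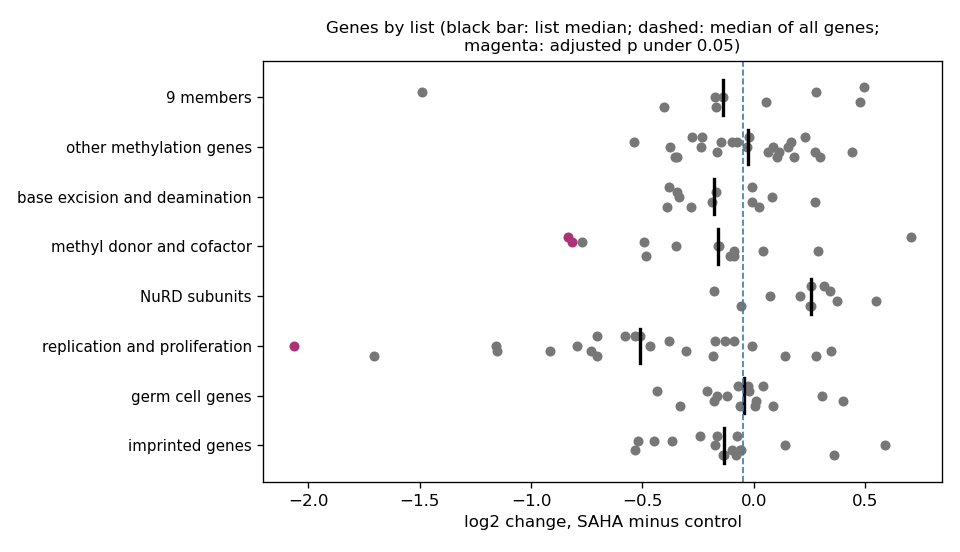
Log2 change, SAHA minus control (horizontal axis), of each measured gene in the 9-gene set and 7 lists of related genes. Black bars are list medians, the dashed line is the median of all genes at -0.05, and magenta points passed the threshold, namely Mcm5 at -2.06, Mtr at -0.83 and Idh1 at -0.82.

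Genes known to be kept silent or marked by DNA methylation were read as 2 further lists. Of 16 germ cell genes none passed and none had an unadjusted p under 0.05. Their median was -0.04, and 15 of them lay below the array median on all 4 arrays, Brdt being the exception (named after its values were seen). Of 17 imprinted genes none passed, 4 had an unadjusted p under 0.05 (beside 18.1% of all genes), and the median was -0.14. Kcnq1ot1, the long noncoding RNA of an imprinted cluster, had the largest change, 0.59 ± 0.56 (adjusted p = 0.621), with values of 9.003 and 7.18 in control and 9.01 and 8.34 with SAHA. Impact, a regulator of the kinase GCN2, was at -0.53 (0.124), while its other probe sets gave 0.17 and 0.20 with overlapping groups.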

How the data were processed

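The authors deposited a single table, with log2 values for each probe set on the 4 arrays, made from biotin-labelled cRNA of 6 µg total RNA per the labels' protocols. The log2 scale was read from the values. The submitters' processing notes name R 2.7, while the summarisation and normalization methods are not given in the sources used here. Array medians spanned 0.0118, and no further normalization was applied. Of 45101 probe sets 34958 had 1 gene symbol, 932 several and 9211 none. Symbols were updated by Entrez identifier with the RefSeq table of GRCm38.p6, which held 34754 of them. SAHA was set against control with limma 3.58.1 (R 4.3.3, intensity trend, two-sided, no filter or covariate), over 18194 genes and, apart, over the single-symbol probe sets. The fit was tested on simulated arrays whose noise was independent between arrays. That setting does not cover arrays that deviate together, so it is no support for the calls made here. Arrays give no read depth, so their number limits the precision.

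The 9 genes and the lists were chosen with earlier results of these data known. Outside the 9, up to 3 called genes per list were named by size of change, or, where a list had no call, the 2 largest changes among genes above the median level. To these came Mbd2, Mbd3, Uhrf2, Hells and Tdg, and the 3 nearest genes of 2 members. Listed symbols without a single-symbol probe set were not analysed here. Other settings were the spread model, normalization, low values, the choice of probe set, replicate number as a term, and fits without each array, which lend the remaining array of a group the spread of the other group.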

Additional observations from a re-analysis of the deposited data

How the results depend on the processing

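None of the 9 genes passed with another spread model, normalization or treatment of low values or with averaged probe sets, nor did any of the 5 that could be tested among genes above the median level (Dnmt1, Dnmt3a, Tet2, Mbd1 and Mbd4). Members were also read by their second-highest probe set (chosen after seeing the data), except Tet3, which has only 1. Of the 9, 1 then passed, Dnmt3a at -1.21 (adjusted p = 0.0266), and Mbd1 turned to -0.038. With each probe set on its own 1 gene, Dnmt3a, passed. Its sign turned against that of the leading probe set in 1423064_at (-1.21), 1423066_at (-1.35) and 1423065_at (-0.60), in the mean of its probe sets (-0.59) and without control replicate 2 (-0.57) or SAHA replicate 1 (-0.13), while it stayed above 0 without control replicate 1 (0.68) or SAHA replicate 2 (0.24). That of Mbd1 turned in 1437061_at (-0.038), 1430837_a_at (-0.12) and 1430838_x_at (-0.076). Leaving out each array in turn gave 31 to 529 called genes of all, 0 to 1 of the 9 and 0 to 6 of the related genes on 7 lists, with 3 called from all arrays.

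An ordinary linear model and a floor at the 20th percentile called 0 genes of all, 0 related genes and 0 member probe sets. Among genes above the median level 226 genes and 0 related genes were called, and with averaged probe sets 1 related gene. Of the 2 called member probe sets 0 remained called without any 1 array. These alternatives for single probe sets were added after seeing the data.

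Same-numbered arrays deviated together (r = 0.57 across genes, which are not independent), but the labels do not say that equal numbers mark a shared culture. With the replicate block 3616 genes (19.9% of all), 4914 probe sets (14.1% of all), 32 related genes and 7 of 27 member probe sets were called, and 4 of the 9 members, namely Dnmt1 (adjusted p = 0.0192), Tet2 (0.00835), Uhrf1 (0.00127) and Mbd4 (0.0383).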
